A study of Homo sapiens with 6 samples.

Results

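The enzymes that make, modify, break down and generate carnosine and β-alanine were examined in β-alanine-fed DMS114 cells, a human cell line established from small cell lung cancer. The set was chosen by name from the known pathway and holds 10 genes: CARNS1, CNDP1, CNDP2, CARNMT1, ABAT, ALDH6A1, AGXT2, DPYD, DPYS and UPB1. Of these, 9 had a row among the 36458 gene symbols used here and AGXT2 was not analysed here. The 3 β-alanine libraries came from DMS114 cells kept for 48 h in 2.5 mM β-alanine, and the 3 control libraries from DMS114 cells given the same volume of vehicle. Both groups are of a single line, and polyadenylated RNA was sequenced. Whether the libraries of a group came from separate cultures is not stated, and the p-values cover no more than the spread among these 6 libraries, and that spread may be technical.

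β-alanine is a free amino acid, absent from the genetic code. Cells make it mainly by breaking down uracil: DPYD reduces the ring, DPYS opens it and UPB1 releases β-alanine. CARNS1 joins β-alanine to histidine, forming the dipeptide carnosine, a buffer and scavenger known best from skeletal muscle and the brain, and CNDP1 and CNDP2 split carnosine again. CARNMT1 methylates carnosine to anserine. Removal of β-alanine itself runs through the transaminases ABAT and AGXT2 to malonate semialdehyde, which ALDH6A1 oxidises.

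Library totals ran from 14433801 counts in β-alanine library 1 to 32909568 in β-alanine library 3. On the first principal component of log2 CPM (CPM is a gene's share of the library total, scaled alike in all libraries), β-alanine library 1 lay at -9.13, apart from β-alanine libraries 2 and 3 at -23.5 and -23.6, and controls lay between 16.7 and 20.02. Mean chi-square per gene was 1.96 to 4.86 between libraries of a group, more than sampling noise, and 4.69 to 15.9 between groups. β-alanine library 1 was at 4.86 from β-alanine library 3 and 4.23 from β-alanine library 2, against 4.69 from control library 3. This measure grows with depth, and β-alanine library 3 was the deepest, so these values do not rank the libraries by likeness. On the first principal component, β-alanine library 1 lay nearer to the other β-alanine libraries than to any control. Of 9 neuroendocrine markers, 3 averaged below 1 CPM, INSM1 among them. CHGA, CHGB and SYP rose, with means of 28.8, 54.5 and 86.1 CPM after β-alanine and 19.6, 43.9 and 60.9 CPM in controls, while NCAM1 fell (1.48 CPM after β-alanine and 2.32 CPM in controls, adjusted p = 0.0156 in edgeR). NEUROD1 and DLL3 were not called (log2 fold changes -0.24 and 0.0012). YAP1 averaged 128 CPM after β-alanine and 124 CPM in controls. Of 8 markers of skeletal muscle, liver and kidney with a row, all 8 averaged below 1 CPM, with a summed level of 0.569 to 1.11 CPM after β-alanine and 0.681 to 0.917 CPM in controls.

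Of the 9 members, 5 had enough counts to be tested (CARNS1, CNDP2, CARNMT1, ABAT and ALDH6A1), and CNDP1, DPYD, DPYS and UPB1 had at most 5 counts in any library. CARNS1, the carnosine synthase, fell after β-alanine, and the other 4 tested enzymes did not pass the test. This is 1 of 5 tested members, against 27.9% of the 17331 genes tested. A call here is an adjusted p (Benjamini-Hochberg, over all genes) under 0.05 by edgeR's quasi-likelihood fit, and near that background share the count does not set these enzymes apart. The median log2 fold change (β-alanine over control) of the 5 was -0.03, against -0.0032 over all tested genes. Their median absolute log2 fold change was 0.07, and that of all tested genes was 0.15.

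**Figure D1:**
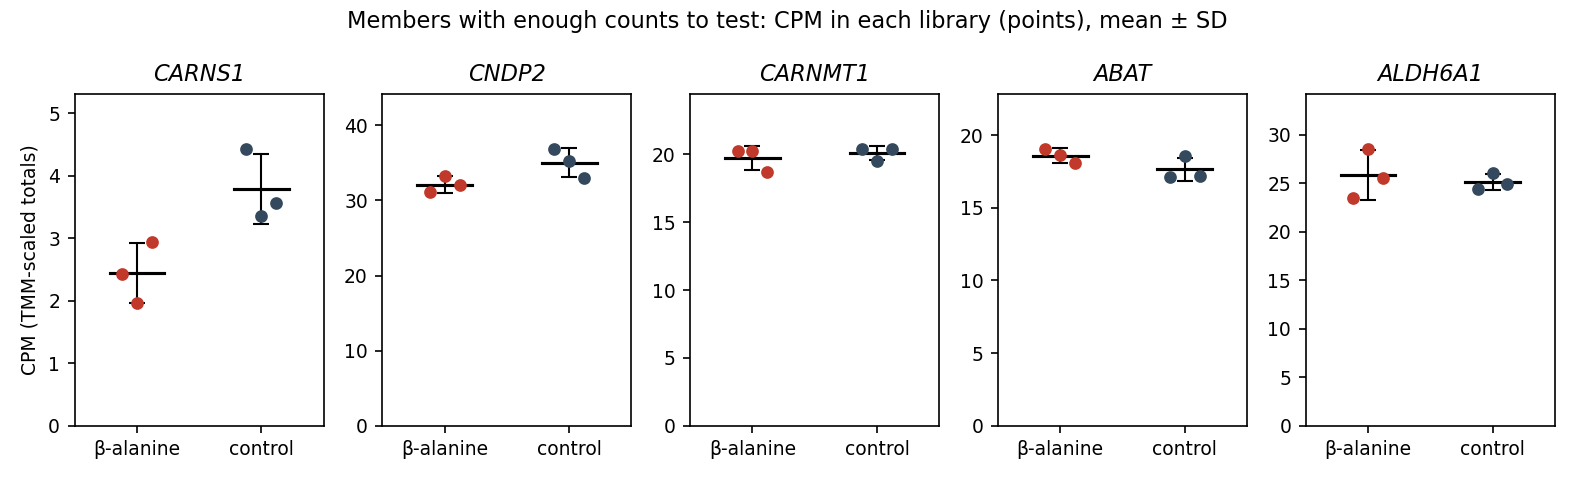
CPM on TMM-scaled library totals (y axis, starting at 0) of the 5 tested enzymes in each library, with β-alanine left and control right; points are libraries, and lines and bars are the mean ± SD of 3. The 3 CARNS1 points after β-alanine lie below the 3 controls, and the groups overlap for the other 4 genes.

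CARNS1, the ligase that uses ATP to couple β-alanine to histidine, was the lowest of the tested members, also per kb of exon. It had 35, 54 and 98 counts in β-alanine libraries 1, 2 and 3, against 82, 74 and 70 counts in control libraries 1, 2 and 3. Scaled for depth, this was 2.43, 1.97 and 2.93 CPM after β-alanine, against 4.43, 3.36 and 3.56 CPM in controls. All 3 β-alanine libraries lay below all 3 controls, with β-alanine library 2 lowest and control library 1 highest. Groups did not overlap for 39.1% of all tested genes.

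The CARNS1 mean was 2.44 ± 0.483 CPM after β-alanine and 3.78 ± 0.566 CPM in controls (SD, n = 3 each). The log2 fold change was -0.61 ± 0.18 (SE), a ratio of 0.656 with a 95% interval of 0.507 to 0.85, and the adjusted p was 0.0143 in edgeR. A larger absolute log2 fold change was seen in 5.52% of tested genes. The call was lost without β-alanine library 2 (log2 fold change -0.45, adjusted p = 0.111 in edgeR) and without control library 1 (-0.49, adjusted p = 0.0895), the lowest and the highest library. With β-alanine library 1 left out it held (-0.60, adjusted p = 0.00798 in edgeR). In bulk RNA, fewer cells with the transcript and less transcript per cell cannot be told apart.

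CARNS1 lies on chromosome 11 from 67415678 to 67425604 (GRCh38, RefSeq). Of its 5670 exon bases, 316 (5.57%) are shared with exons of PPP1CA, a phosphatase subunit on the opposite strand that had 4942 to 10772 counts after β-alanine and 5837 to 6547 in controls. Use of strand in the counting is not given in the sources used here, so CARNS1 counts are uncertain. The log2 fold change of PPP1CA was 0.10 (adjusted p = 0.0652 in edgeR). The part of the shared bases in the CARNS1 result was not tested. Of 7 fibroblast markers, 6 averaged above 1 CPM and COL1A2 was near 0, and their summed level was also lower, at 943 to 1050 CPM after β-alanine and 1191 to 1234 CPM in controls. COL3A1 made up most of that sum (691 CPM after β-alanine and 875 CPM in controls). COL1A1, DCN and THY1 also fell, LUM was not called (log2 fold change -0.10, adjusted p = 0.151 in edgeR) and PDGFRB rose (0.19, adjusted p = 0.0482 in edgeR), so the list did not move one way. The part of these markers in the CARNS1 result was not tested.

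The patterns most like that of CARNS1 over the 6 libraries were those of MS4A15, CXCL12 and NUDT6, out of 13700 genes with a mean log2 CPM of at least 1. Likeness was the root mean square difference of log2(CPM + 0.5) after centring each gene, and came to 0.0962, 0.0971 and 0.104 for these genes. CXCL12, a chemokine, had 5.98, 5.72 and 7.12 CPM in β-alanine libraries 1, 2 and 3, against 10.04, 9.36 and 9.11 CPM in control libraries 1, 2 and 3. MS4A15, a membrane-spanning protein gene, had 2.57, 2.29 and 3.41 CPM after β-alanine, against 4.32, 4.13 and 3.82 CPM in controls. NUDT6, a Nudix-family gene, had 4.10, 2.91 and 4.04 CPM after β-alanine, against 6.16, 5.63 and 5.14 CPM in controls. In each of the 3, as in CARNS1, β-alanine library 2 was the lowest and control library 1 the highest. The genes were chosen for likeness over these same 6 libraries, so this shared order is not a separate result.

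The carnosine-splitting enzymes were far apart in level. CNDP2, a cytosolic dipeptidase that cleaves many dipeptides, and CNDP1, the secreted serum carnosinase, are neighbours on chromosome 18. CNDP2 spans 74496363 to 74523454 and CNDP1 spans 74534500 to 74587212 (GRCh38, RefSeq), with 11046 bases between the end of one and the start of the other. Pooled over 6 libraries, CNDP2 had 250 times as many counts per kb of exon as CNDP1 (95% Poisson interval from the CNDP1 counts 140 to 500.4, counting error only).

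Because the paralogues differ so much in level while sharing a locus, the 250 bases before the most upstream RefSeq start of each (GRCh38.p14, plus strand, CNDP2 at chr18:74496113-74496362 and CNDP1 at chr18:74534250-74534499) are shown 5′ to 3′, with each CG dinucleotide in capitals. CG reads the same on both strands.
CNDP2: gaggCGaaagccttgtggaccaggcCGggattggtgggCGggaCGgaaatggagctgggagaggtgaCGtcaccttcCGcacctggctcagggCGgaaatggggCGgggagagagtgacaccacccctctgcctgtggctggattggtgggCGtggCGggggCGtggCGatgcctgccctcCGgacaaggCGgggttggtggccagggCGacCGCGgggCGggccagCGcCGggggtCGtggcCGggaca
CNDP1: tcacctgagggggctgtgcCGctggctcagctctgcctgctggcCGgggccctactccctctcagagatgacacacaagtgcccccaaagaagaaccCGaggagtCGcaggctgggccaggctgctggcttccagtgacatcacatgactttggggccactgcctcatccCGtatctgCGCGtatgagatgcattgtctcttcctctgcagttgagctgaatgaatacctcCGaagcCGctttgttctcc
The CNDP2 window holds 22 CG and the CNDP1 window 9. Of 35116 such windows in the RefSeq table, 28.0% hold at least 22 and 54.1% at least 9. The windows of 2 further CNDP2 starts hold 4 and 5. CARNS1 and DPYS had no window here and are left out of what follows. Among the other tested members, the windows of CARNMT1 hold 26, 29 and 2, those of ABAT 24, 12, 13 and 1, and that of ALDH6A1 11. Among the other members with too few counts to test, the window of UPB1 holds 22 and those of DPYD hold 25 and 20. The counts of these 2 kinds of member overlapped. This describes the letters only, since no promoter activity or methylation was measured.

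CNDP2 had 31.1, 33.2 and 32.0 CPM in β-alanine libraries 1, 2 and 3, against 36.9, 35.2 and 33.0 CPM in control libraries 1, 2 and 3. The ranges overlapped, with β-alanine library 2 just above control library 3. The mean was 32.1 ± 1.07 CPM after β-alanine and 35.0 ± 1.95 CPM in controls (SD, n = 3 each). The log2 fold change was -0.12 ± 0.06 (SE, adjusted p = 0.157 in edgeR), and its 95% interval, -0.25 to 0.01, reaches from a ratio of 0.841 to 1.01. The CARNS1 ratio of 0.656 lies outside that interval, but the interval of CARNS1 itself, 0.507 to 0.85, overlaps it. No test compared the changes of these genes.

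Set against each other per kb of exon, CNDP2 transcripts outnumbered CARNS1 transcripts in every library. The ratio was 6.11, 8.08 and 5.23 in β-alanine libraries 1, 2 and 3, against 3.99, 5.01 and 4.43 in control libraries 1, 2 and 3. The mean ratio was 6.47 ± 1.46 in β-alanine libraries and 4.48 ± 0.515 in control libraries (SD, n = 3 each). The groups did not overlap, but β-alanine library 3 was close to control library 2. With the longest transcript of each gene as length, chosen after seeing the data, the mean ratio was 13.4 ± 3.01 in β-alanine libraries and 9.23 ± 1.06 in control libraries. No test was made of this ratio, which follows from the CARNS1 values above.

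CNDP1 had 0, 3 and 5 counts in β-alanine libraries 1, 2 and 3, against 0, 2 and 1 in control libraries 1, 2 and 3. Pooled, this was 0.106 CPM after β-alanine (95% Poisson interval 0.0459 to 0.209) and 0.0499 CPM in controls (0.0103 to 0.146). These intervals cover counting error only and overlap widely. At this depth a difference in CNDP1 could not be detected.

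CARNMT1, which methylates carnosine to anserine and also modifies histidines in proteins, had 20.2, 20.2 and 18.7 CPM in β-alanine libraries 1, 2 and 3, against 20.4, 19.5 and 20.4 CPM in control libraries 1, 2 and 3. The 6 values were close together and the groups overlapped. Its mean was 19.7 ± 0.889 CPM after β-alanine and 20.1 ± 0.495 CPM in controls (SD, n = 3 each), with a log2 fold change of -0.03 ± 0.07 (SE, adjusted p = 0.79 in edgeR). The 95% interval allows ratios from 0.88 to 1.09. CARNMT1 lies on chromosome 9 from 74980790 to 75028430 and overlaps the antisense gene CARNMT1-AS1, which had 3 to 9 counts after β-alanine and 1 to 4 in controls and shares 0 exon bases with it.

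Among the enzymes that remove β-alanine, ABAT and ALDH6A1 were well measured. ABAT, the mitochondrial transaminase of GABA and β-alanine on chromosome 16 (8674617 to 8784570), had 19.0, 18.6 and 18.1 CPM in β-alanine libraries 1, 2 and 3, against 17.1, 18.6 and 17.2 CPM in control libraries 1, 2 and 3. β-alanine library 3 was below control library 2, so the groups overlapped. The mean was 18.6 ± 0.490 CPM after β-alanine and 17.6 ± 0.818 CPM in controls (SD, n = 3 each). The log2 fold change was 0.07 ± 0.08 (SE, adjusted p = 0.543 in edgeR), with a 95% interval of the ratio from 0.941 to 1.17. Of the exon bases of ABAT, 1.56% are shared with TMEM186 on the opposite strand.

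ALDH6A1, the mitochondrial dehydrogenase of malonate and methylmalonate semialdehydes, also serves valine and thymine breakdown. It had 23.5, 28.6 and 25.6 CPM in β-alanine libraries 1, 2 and 3, against 24.5, 26.02 and 24.9 CPM in control libraries 1, 2 and 3. The β-alanine libraries held both the lowest and the highest value. The mean was 25.9 ± 2.54 CPM after β-alanine and 25.1 ± 0.808 CPM in controls (SD, n = 3 each), and the log2 fold change was 0.05 ± 0.07 (SE, adjusted p = 0.648 in edgeR). Ratios from 0.933 to 1.15 lie within the 95% interval. ALDH6A1 lies on chromosome 14 from 74056847 to 74084453, and 10.03% of its exon bases are shared with BBOF1 on the opposite strand. BBOF1 had 32 to 90 counts after β-alanine and 52 to 59 in controls, not scaled for depth. The log2 fold change of BBOF1 was -0.06 (adjusted p = 0.828 in edgeR).

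**Figure D2:**
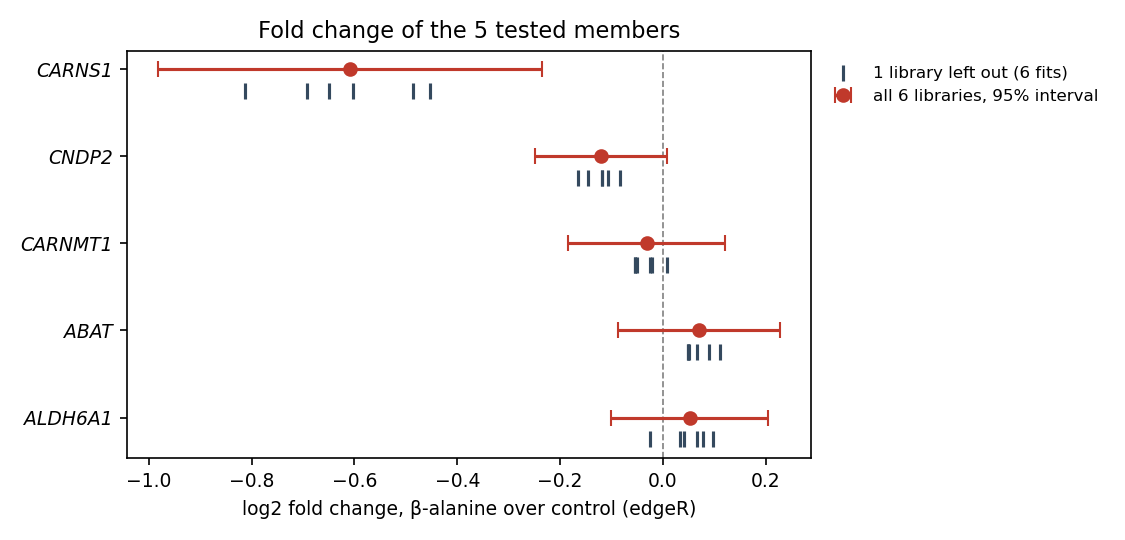
Log2 fold change of β-alanine over control (x axis) for the 5 tested enzymes from edgeR, with the 95% interval (circle and bar) and the 6 fits that each leave out 1 library (ticks). The CARNS1 interval, -0.98 to -0.24, lies below 0, and the intervals of the other 4 include 0.

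The uracil-degrading enzymes that yield β-alanine were near the detection floor in both groups. DPYD, the first and rate-limiting enzyme of the route, on chromosome 1 from 97077743 to 97921059, had 2, 3 and 4 counts in β-alanine libraries 1, 2 and 3, against 0, 1 and 2 in control libraries 1, 2 and 3. Pooled, this was 0.12 CPM after β-alanine (95% Poisson interval 0.0547 to 0.227) and 0.0499 CPM in controls (0.0103 to 0.146). The groups did not overlap in CPM, as for 39.1% of the genes above the count filter, and each DPYD value rests on at most 4 counts. DPYD shares 6.93% of its exon bases with MIR137HG on the same strand, itself at 2 to 7 counts after β-alanine and 1 to 7 in controls.

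DPYS, the dihydropyrimidinase on chromosome 8 from 104379431 to 104467055, had 1, 0 and 2 counts after β-alanine, against 1, 0 and 1 in controls. Its pooled level was 0.0399 CPM after β-alanine (95% Poisson interval 0.00822 to 0.117) and 0.0332 CPM in controls (0.00402 to 0.12). UPB1, the last step, on chromosome 22 from 24495332 to 24528390, had 1, 4 and 2 counts after β-alanine, against 0, 1 and 1 in controls. Its groups did not overlap in CPM either, again on at most 4 counts a library. Its pooled level was 0.093 CPM after β-alanine (95% Poisson interval 0.0374 to 0.192) and 0.0332 CPM in controls (0.00402 to 0.12).

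All 4 low members had more pooled counts after β-alanine, 27 in all against 10 in controls. These sums are not scaled for the greater total depth of the β-alanine libraries. Scaled for depth, the pooled CPM of each low member was also higher after β-alanine, and their intervals overlapped between groups. When edgeR was run without the count filter, their adjusted p-values lay between 0.591 and 0.951. These differences were not detectable at this depth.

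**Figure D3:**
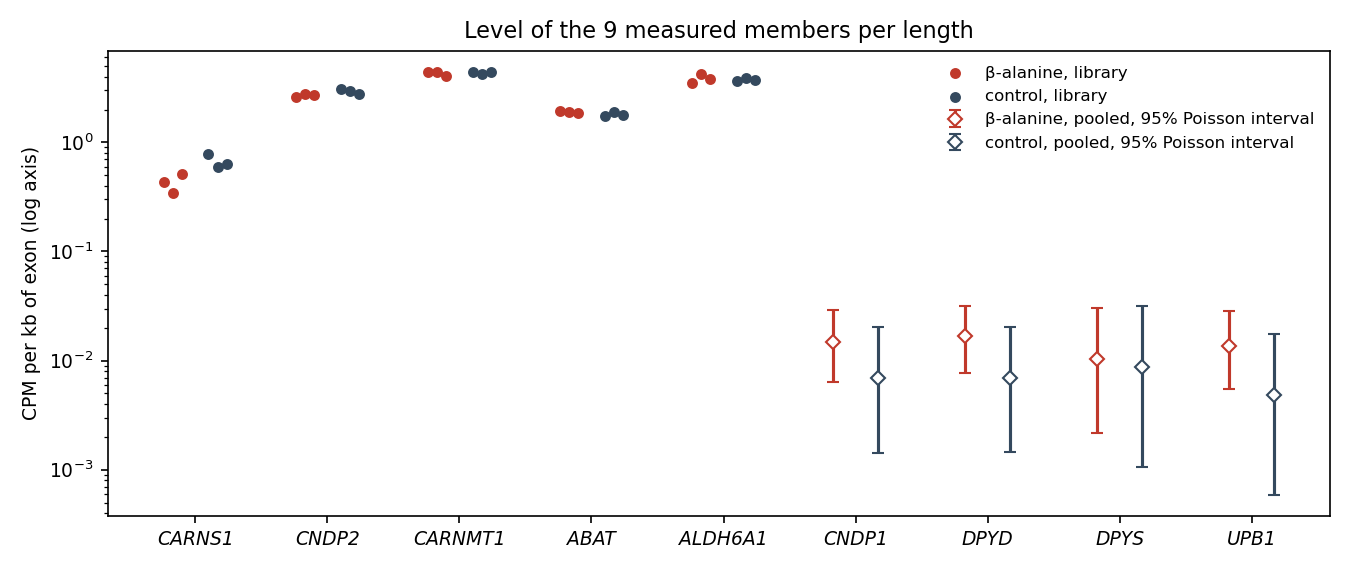
CPM per kb of exon (log y axis) of the 9 measured enzymes, β-alanine left of control for each gene. Filled points are libraries, and open diamonds are pooled counts of each group with 95% Poisson intervals for the 4 genes below the count filter, all of which sit under the level of CARNS1.

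Ordered by level per length over the 6 libraries, CARNMT1 came first at 4.32 ± 0.147 CPM per kb of exon (SD, n = 6). ALDH6A1 followed at 3.82 ± 0.260, CNDP2 at 2.83 ± 0.179, ABAT at 1.86 ± 0.0820 and CARNS1 at 0.549 ± 0.154 CPM per kb. Each gene was above the next in 6 of 6 libraries, but the ranges of CARNMT1 (4.06 to 4.43) and ALDH6A1 (3.52 to 4.27) overlapped. The 4 low members lay between 0.00967 and 0.0124 CPM per kb over the pooled libraries, with no order among them that their counts could show. The place of CNDP2 depends on the length used. Its annotated exons cover 11848 bases while its longest transcript has 5130, and with the longest transcript CNDP2 came first at 6.54 CPM per kb.

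The genes around these enzymes were counted from 8 lists of 77 genes, of which 62 were tested. Of these 62, 6 rose and 12 fell (29.03%, near the 27.9% of all tested genes), and the median log2 fold change was -0.04. Over all tested genes, 14.1% rose and 13.8% fell. Values in parentheses are edgeR log2 fold changes ± SE. Without β-alanine library 2, 3 rose and 8 fell, and without β-alanine library 3, 3 rose and 6 fell.

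In the list of uridine and thymidine turnover, 4 of 11 tested genes fell and 0 rose. Over all tested genes 13.8% fell, and no test of this list as a set was made. The 4 were the thymidine kinases TK2 (-0.48 ± 0.06) and TK1 (-0.28 ± 0.08), the nucleotidase NT5M (-0.62 ± 0.14) and UCKL1 (-0.33 ± 0.09), related to uridine kinases. The list holds kinases as well as phosphorylases, so these falls give no direction for the supply to DPYD. DCTD, a deoxycytidylate deaminase and the gene with the highest CPM of the list, not scaled for length, stood at 0.01 ± 0.04. The call for UCKL1 was lost in edgeR when β-alanine library 2 was left out (adjusted p = 0.0823). That for TK1 was lost on leaving out β-alanine library 2 (0.0777), β-alanine library 3 (0.0795), control library 1 (0.087) or control library 2 (0.0756), as adjusted p in edgeR.

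UPP1, a uridine phosphorylase that releases uracil, the substrate of DPYD, is described because of its values and not by rule. It had 4.59, 13.3 and 14.1 CPM in β-alanine libraries 1, 2 and 3, against 3.67, 4.50 and 4.23 CPM in control libraries 1, 2 and 3. β-alanine library 1 was just above the controls and the other β-alanine libraries far above. The log2 fold change was 1.45 ± 0.47 (SE, adjusted p = 0.0946 in edgeR), and it was not called. With 1 library left out it ran from 1.21 to 1.72 (adjusted p 0.252 to 2.5e-16 in edgeR), and 1 of these 6 fits called it, the one leaving out β-alanine library 1. It was called with DESeq2 (adjusted p = 0.0246), with limma-voom (adjusted p = 0.00271) and in edgeR with no robust shrinkage (adjusted p = 0.000464), and over the alternatives with all 6 libraries its adjusted p ran from 0.000464 to 0.192.

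Of the polyamine genes, which offer another source of β-alanine, 2 of 14 rose and 3 fell. AZIN1, which promotes ornithine decarboxylase activity (0.22 ± 0.04), and the aldehyde dehydrogenase ALDH2 (0.39 ± 0.13) rose. Ornithine decarboxylase, ODC1, the highest in CPM (-0.16 ± 0.05), the polyamine oxidase PAOX (-0.67 ± 0.22) and the aldehyde dehydrogenase ALDH7A1 (-0.31 ± 0.04) fell. As adjusted p in edgeR, the call for ODC1 was lost on leaving out β-alanine library 3 (0.0849), control library 1 (0.0604) or control library 2 (0.117), and that for PAOX on leaving out β-alanine library 3 (0.189), control library 1 (0.137) or control library 3 (0.0726). That for ALDH2 was lost on leaving out β-alanine library 2 (0.0589), β-alanine library 3 (0.0929), control library 2 (0.123) or control library 3 (0.105), as adjusted p in edgeR.

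In the valine and propionate route that shares ALDH6A1, 3 of 17 rose and 2 fell. The dehydrogenase subunits DBT (0.40 ± 0.05) and DLD (0.17 ± 0.04) and the hydrolase HIBCH (0.19 ± 0.06) rose, and the dehydrogenase subunit BCKDHB (-0.18 ± 0.06) and the malonyl-CoA synthetase ACSF3 (-0.73 ± 0.10) fell. HADHA, the highest in CPM, stood at -0.09 ± 0.04 (adjusted p = 0.0962 in edgeR) and was called once β-alanine library 1 was left out (-0.13, adjusted p = 0.0027 in edgeR). As adjusted p in edgeR, the call for BCKDHB was lost on leaving out β-alanine library 2 (0.105), β-alanine library 3 (0.103), control library 2 (0.0849) or control library 3 (0.132), and that for HIBCH on leaving out β-alanine library 2 (0.0858), β-alanine library 3 (0.0774), control library 1 (0.0525) or control library 3 (0.0656).

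Of 5 DPYS paralogues, neuronal cytoskeletal proteins without the enzyme activity, CRMP1 (-0.19 ± 0.05), DPYSL3 (-0.40 ± 0.10) and DPYSL4 (-0.29 ± 0.09) fell. DPYSL5 (-0.56 ± 0.19, adjusted p = 0.0961 in edgeR) and DPYSL2 (-0.05 ± 0.07) were not called. DPYSL5 had 47.4, 31.6 and 30.1 CPM in β-alanine libraries 1, 2 and 3, against 52.8, 52.9 and 50.5 CPM in control libraries 1, 2 and 3. With limma-voom, and in edgeR with no robust shrinkage, with the replicate block or without β-alanine library 1, 4 of the 5 fell. Among all tested genes 13.8% fell, and no test of this list as a set was made. CRMP1 was the highest in CPM. As adjusted p in edgeR, the call for DPYSL3 was lost on leaving out β-alanine library 3 (0.0527), and that for DPYSL4 on leaving out β-alanine library 2 (0.106), β-alanine library 3 (0.0721), control library 1 (0.0761) or control library 2 (0.109). Of 4 tested aminotransferases related to ABAT, AGXT2 or alanine transaminase, OAT rose (0.13 ± 0.04), a call lost on leaving out β-alanine library 2 (0.124), β-alanine library 3 (0.174), control library 2 (0.122) or control library 3 (0.102), as adjusted p in edgeR.

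In the lists of decarboxylase and GABA genes, of peptidases and dipeptide carriers, and of histidine use, 0 of 2, 0 of 4 and 0 of 5 tested genes were called by edgeR, and 0 by DESeq2. At an unadjusted p under 0.05 in edgeR there were 0, 0 and 3, against 28 of the 62 tested genes of all 8 lists. The 3 were HARS1, HARS2 and AMDHD1 (log2 fold changes 0.11, -0.14 and -0.82), which did not move one way. HARS1 and HARS2 share 437 exon bases on opposite strands, so their counts are uncertain. The gene highest in CPM was CSAD (-0.04 ± 0.06) in the first list, SLC15A4 (0.03 ± 0.06) in the second and HARS1 (0.11 ± 0.05) in the third. PM20D2, a peptidase related to CNDP2 that clears side products of CARNS1, stood at -0.04 ± 0.07. Of the called genes of all 8 lists, UCKL1, TK2, PAOX, AZIN1, ALDH2, DBT, DLD, HIBCH, ACSF3 and CRMP1 share exon bases with another counted gene, so their counts are uncertain.

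**Figure D4:**
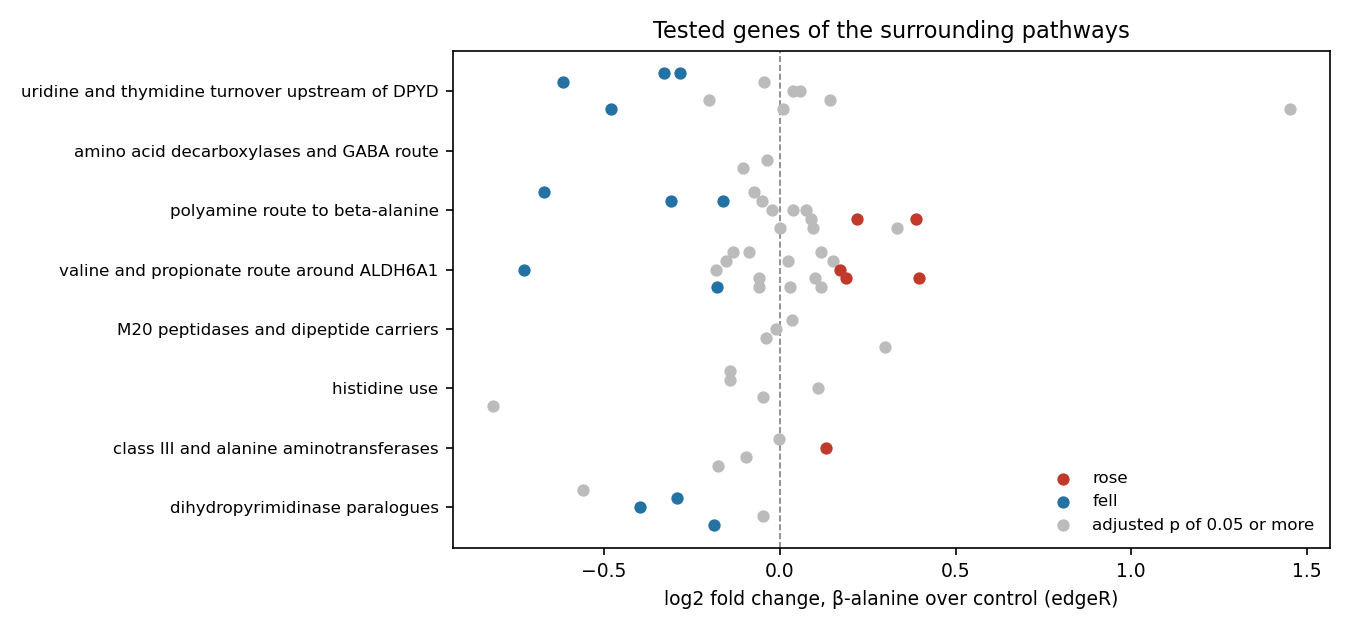
Log2 fold change of β-alanine over control (x axis, edgeR) of the 62 tested genes in 8 lists around the carnosine and β-alanine enzymes (rows). Each point is a gene, red where it rose (6), blue where it fell (12) and grey where the adjusted p was 0.05 or more, and the point at 1.45 is UPP1.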

How the data were processed

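Polyadenylated RNA of DMS114 cells was sequenced from 3 β-alanine and 3 control libraries, grouped by sample title. The values deposited by the authors are raw read counts, one row for each gene symbol. The submitters' processing notes name STAR 2.7.3a, featureCounts 2.0.1, Trimmomatic 0.39, bcl2fastq and DESeq2 and the build GRCh38. They give no settings, annotation or strand use, so it is not known whether reads of overlapping genes on opposite strands were separated.

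Genes were filtered with filterByExpr (17331 of 36458 kept), scaled by TMM and tested with edgeR 4.0.16 (quasi-likelihood, robust, two-sided, no covariate, R 4.3.3) on all 6 libraries, with Benjamini-Hochberg adjustment over all tested genes and a threshold of 0.05. CPM uses TMM-scaled totals. Intervals of fold changes are 95% from the same fit. Low members got pooled exact Poisson intervals. Positions are RefSeq on GRCh38.p14, and exon lengths and overlaps GENCODE release 29. The steps were tested on simulated data. Figures used matplotlib 3.10.9.

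The members, lists and tests were chosen with earlier results of these data known. The genes named were all members, every called list gene, the highest in CPM of each list, the 3 nearest patterns to each called member, and genes overlapping a member. UPP1 and PM20D2 were chosen otherwise. Alternatives were other scaling, filters and thresholds, DESeq2 1.42.0, limma-voom (limma 3.58.1), no robust shrinkage, a replicate block, thinning and leaving out each library. The median over 20 thinnings and the longest-transcript ratio of CNDP2 to CARNS1 were added after seeing the data. Same-numbered libraries were checked for pairing: their deviations from group means correlated at 0.05, 0.004 and 0.072, and those of crossed pairs at -0.072 to 0.008. With 3 libraries a group these values cannot show whether the libraries were paired. The labels state no pairing, so the main fit left the numbers out.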

Additional observations from a re-analysis of the deposited data

How the results depend on the processing

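The CARNS1 log2 fold change stayed negative in every alternative run, between -0.67 and -0.59 in the alternatives with all 6 libraries other than repeated thinning (adjusted p 0.00731 to 0.0467) and between -0.81 and -0.45 with 1 library left out. At a threshold of 0.01 its value of -0.61 was no longer called. Over 20 thinnings to 14433801 counts it ran from -0.89 to -0.55 and was called in 18, with adjusted p from 0.00285 to 0.0742, so depth limits this call. With 1 library left out, CARNMT1 ran from -0.055 to 0.0083 (positive without β-alanine library 3) and ALDH6A1 from -0.0258 to 0.0973 (negative without β-alanine library 2), and neither was called in any setting, nor were CNDP2 and ABAT. DCTD was at -0.0111 when thinned and -0.0119 to 0.0393 with 1 library left out. The cause of these reversals was not tested.

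Over all genes, a threshold of 0.01 left 1454 that rose and 1391 that fell, and fits with 1 library left out gave 1501 to 3204 and 1473 to 3294. Of the list genes, 3 rose and 7 fell at 0.01, and 3 to 9 rose and 6 to 16 fell with 1 library left out. With all 6 libraries, DESeq2 did not call PAOX (0.0603), ALDH2 (0.0903), BCKDHB (0.0534) or OAT (0.0559), as adjusted p. In edgeR when thinned, PAOX (0.0901), ALDH2 (0.0525) and OAT (0.111) were not called, as adjusted p, and 2 DPYS paralogues fell where the main fit had 3. With the longest transcript as length, CNDP2, CARNMT1, ALDH6A1 and ABAT stood at 6.54, 4.82, 4.64 and 3.24 CPM per kb, by construction of the shorter length. With the replicate block, CARNS1 was at -0.60 (adjusted p = 0.00926 in edgeR), 2564 genes rose and 2608 fell, and UPP1 was called (adjusted p = 0.00053 in edgeR). Same-numbered pairs correlated at most at 0.072, which cannot show whether the libraries were paired.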
